A study of Homo sapiens with 6 samples.

Results

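The genes described here encode 7 chemokines that attract lymphocytes and monocytes and that are linked to the interferon response: CXCL9, CXCL10, CXCL11, CXCL16, CX3CL1, CCL2 and CCL5. They were chosen by gene symbol, with earlier results of these data known. All 7 were among the 26255 symbols in each of the 6 expression files. The files hold FPKM, the fragments assigned to a gene scaled to the length of its exons and to the depth of the library. They come from BxPC-3, a cell line established from a human pancreatic adenocarcinoma, with 3 groups and 2 libraries per group. Parent cells received no treatment. NC-1 cells received the study's negative control treatment. The third group was transfected with miR-4711-5p, a synthetic duplex of the microRNA, and RNA was compared 36 h after transfection. The study's methods list a negative control duplex and a purchased second control, and the labels of NC-1 do not say more about which RNA it was. All 6 libraries are from the same cell line, and no label says whether the libraries of a group came from separate cultures, so the spread between them may be technical.

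Chemokines are small secreted proteins that guide leukocytes along a gradient by binding receptors of the G protein-coupled class. CXCL9, CXCL10 and CXCL11 share the receptor CXCR3, which is carried mainly by activated T cells and natural killer cells, and are textbook targets of interferon signalling. CXCL16 and CX3CL1 are unusual in that they are made as membrane proteins with the chemokine domain on a mucin-like stalk, and they are released when a protease cuts the stalk. CCL2 draws monocytes through CCR2, and CCL5 draws T cells and monocytes through receptors of the CC class. In epithelial tumour cells, both interferon signalling and NF-kappaB are known to control this group of genes.

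The RNA that was transfected is given first because it defines the groups. In RefSeq (GRCh38.p14), mature miR-4711-5p is 23 bases long and lies on the minus strand at chr1:59733269-59733291, with the seed (bases 2 to 8) in capitals:
hsa-miR-4711-5p: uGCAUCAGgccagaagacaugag

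The summed FPKM of the libraries lay between 493145 and 550772. From the steps between the lowest values, relative depth was between 0.751 and 1 in the 4 control libraries and was 1.08 and 1.21 in the miR-4711-5p libraries, with Parent replicate 1 set to 1. The absolute number of reads is unknown. The epithelial markers EPCAM, KRT7, KRT8, KRT18, KRT19 and CDH1 were all above 1 FPKM in every library, and SMAD4, which BxPC-3 is known to lack, was listed at 0 in all 6. The epithelial markers were not steady and did not move in a shared direction. CDH1 averaged 115 FPKM in Parent, 109.5 in NC-1 and 29.6 with miR-4711-5p, and KRT19 averaged 1629, 1274 and 901 FPKM. In the same order, EPCAM averaged 101, 91.9 and 109 FPKM, and KRT18 averaged 1093, 998 and 1251 FPKM. KRT7 averaged 1694, 1789 and 1590 FPKM, and KRT8 averaged 1427, 1128 and 1341 FPKM. Because some of these chemokines are also made by leukocytes, 12 markers of blood cells were examined. Their summed FPKM was 2.66 and 2.42 in Parent, 3.36 and 2.98 in NC-1 and 2.43 and 3.43 in miR-4711-5p. TYROBP, NKG7 and MS4A1 were listed at 0 in every library, and PTPRC reached at most 0.0253 FPKM. CD14 was the highest of the 12, with up to 2.18 FPKM in NC-1 and 0.897 and 1.80 FPKM in miR-4711-5p. CD3D had 0.550 and 0.462 FPKM in miR-4711-5p, above all 4 control libraries, which reached at most 0.443, and CD3E averaged 0.288 FPKM in Parent, 0.596 in NC-1 and 0.662 in miR-4711-5p. Of 9 markers of fibroblasts and endothelium, the sum was 3.98 and 3.25 in Parent, 6.53 and 5.94 in NC-1 and 3.23 and 3.43 in miR-4711-5p. The part of these cell types in the results was not tested.

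miR-4711-5p treatment was accompanied by higher mRNA of CXCL10, CXCL11, CCL5 and CXCL16 than in both control groups. CXCL10 differed most, with a ratio of mean FPKM of 6.72 over Parent, and CXCL16 least, with a ratio of 1.2. CXCL9, CX3CL1 and CCL2 stayed below 1 FPKM in every library. CXCL10, CXCL11, CXCL16 and CCL5 averaged 1 FPKM or more across all 6 libraries and entered a limma fit of log2(FPKM + 1) over the 12040 genes above that limit. A gene was called when its Benjamini-Hochberg adjusted p was below 0.05. Against Parent, 4 of the 4 were called higher, where 18.7% of all genes tested were called higher. Against NC-1, 4 of the 4 were called higher, against 18.4% of all genes. Between NC-1 and Parent, 2 of the 4, CXCL10 and CXCL11, were called higher in NC-1, against 12.1% of all genes. None of the 4 was called lower, where 24.7%, 21.2% and 15.1% of all genes were called lower in these 3 comparisons, so with 4 genes little can be read from that count. As the genes were chosen with earlier results of these data known, these counts are no independent test of the set. In RNA from whole cultures, a larger number of expressing cells and more RNA per cell cannot be told apart.

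**Figure D1:**
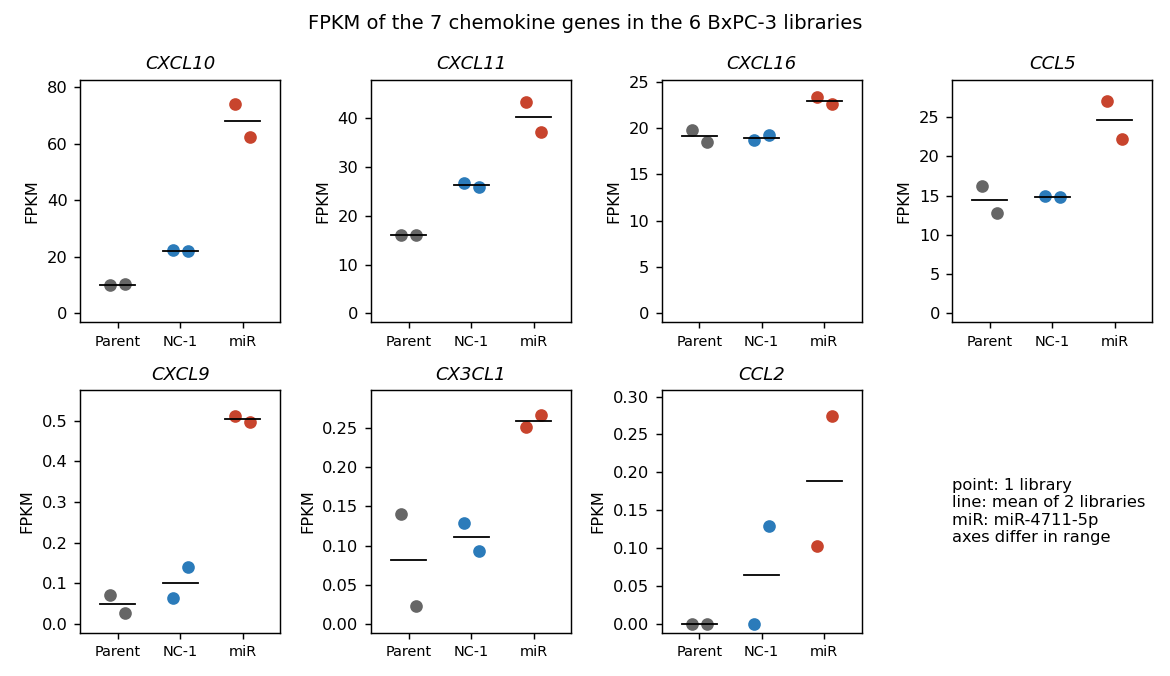
FPKM (vertical axes, which differ in range) of the 7 chemokine genes in the Parent, NC-1 and miR-4711-5p groups (horizontal axes). Each point is 1 library and each line the mean of 2 libraries. Both miR-4711-5p libraries lie above all 4 control libraries for every gene except CCL2, as they did for 19.4% of the 19158 genes above 0 in at least 1 library, and CXCL9, CX3CL1 and CCL2 stay below 1 FPKM.

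The genes of the CXCR3 ligands lie side by side on the minus strand of chromosome 4. On GRCh37, the build named hg19 in the study, CXCL9 spans 76922428 to 76928662, CXCL10 spans 76942271 to 76944650 and CXCL11 spans 76954835 to 76962568. ART3, a gene on the opposite strand that overlaps CXCL10 and CXCL11, was at most 0.135 FPKM in any library.

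CXCL10, named for its induction by interferon gamma, had 9.96 and 10.3 FPKM in the Parent libraries, 22.3 and 21.9 FPKM in NC-1 and 74.0 and 62.2 FPKM in miR-4711-5p. The 3 groups did not overlap, with Parent lowest and miR-4711-5p highest. Its mean was 10.1 ± 0.254 FPKM in Parent, 22.1 ± 0.242 in NC-1 and 68.1 ± 8.36 with miR-4711-5p (SD, n = 2 libraries each). The log2 fold change was 2.63 against Parent (standard error 0.08, 95% interval 2.44 to 2.82, limma adjusted p = 3.30e-06), which was place 18 of 12040 by size of the increase. Against NC-1 the ratio of means was 3.08 and the log2 fold change 1.58 (95% interval 1.39 to 1.77, limma adjusted p = 1.69e-05), place 45. NC-1 itself was 2.18 times Parent, which on the log2 scale was 1.05 (95% interval 0.86 to 1.24, limma adjusted p = 0.000568), place 56. The gene was thus higher in NC-1 than in Parent and higher again with miR-4711-5p. As Parent cells received no treatment, the control RNA and the transfection itself cannot be told apart in NC-1.

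CXCL11, the CXCR3 ligand with the highest affinity for the receptor, had 16.1 and 16.1 FPKM in Parent, 26.8 and 26.0 FPKM in NC-1 and 43.4 and 37.1 FPKM in miR-4711-5p. These values were ordered as those of CXCL10, again with no overlap between groups, but over a narrower range. The log2 fold change was 1.27 against Parent (95% interval 1.09 to 1.44, limma adjusted p = 2.58e-05), 0.59 against NC-1 (95% interval 0.41 to 0.76, limma adjusted p = 0.000958) and 0.68 for NC-1 against Parent (95% interval 0.51 to 0.86, limma adjusted p = 0.00183). In ratios of mean FPKM these were 2.50, 1.53 and 1.64.

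CXCL9, the CXCR3 ligand most tied to interferon gamma, was barely detected. It had 0.0720 and 0.0275 FPKM in Parent, 0.0639 and 0.140 FPKM in NC-1 and 0.513 and 0.497 FPKM in miR-4711-5p. Both miR-4711-5p libraries were above all 4 control libraries, and Parent and NC-1 overlapped. Corrected for relative depth, these values were whole multiples of the smallest of them, namely 3 and 1 steps in Parent, 2 and 5 in NC-1 and 23 and 25 in miR-4711-5p, to within 0.001 of a step. If a step is 1 read, the ratio of miR-4711-5p to Parent was 9.85 with a 95% counting interval of 3.61 to 37.6, and the ratio to NC-1 was 4.83 with an interval of 2.17 to 12.7 (exact Clopper-Pearson). The intervals cover counting error only. CXCL9 was below the limit of the test, but with no limit on low values CXCL9 was called by limma both against Parent (adjusted p = 0.00220) and against NC-1 (adjusted p = 0.00384). Even with miR-4711-5p, CXCL9 was at 0.693 and 0.799 FPKM for each 100 FPKM of CXCL10, compared with 0.266 to 0.723 in the 4 control libraries.

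Since the CXCR3 ligands are interferon targets, the stretches around their starts are shown, from 250 bases before to 50 bases after each start (RefSeq, GRCh38.p14, which differs from the build of the expression files). Of the 7 genes, these 3 matched the promoter table and CXCL16, CX3CL1, CCL2 and CCL5 did not. Both strands were searched for the interferon-stimulated response element (ISRE, TTTCNNTTTC), the gamma-activated site of interferon gamma signalling (GAS, TTCNNNGAA) and the NF-kappaB motif. The NF-kappaB motif was searched in a narrow form, GGGNNTTTCC, and as its 10-base consensus, which was added after the sequences had been seen. Capitals mark every match. CXCL9 lies at chr4:76007460-76007759, CXCL10 at chr4:76023448-76023747 and CXCL11 at chr4:76036021-76036320, all on the minus strand and written 5′ to 3′:
CXCL9: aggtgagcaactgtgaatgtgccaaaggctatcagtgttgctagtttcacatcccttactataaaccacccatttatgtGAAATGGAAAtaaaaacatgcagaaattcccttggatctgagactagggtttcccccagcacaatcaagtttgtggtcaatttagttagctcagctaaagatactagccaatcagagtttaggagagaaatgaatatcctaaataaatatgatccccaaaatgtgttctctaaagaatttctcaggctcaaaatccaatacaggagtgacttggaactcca
CXCL10: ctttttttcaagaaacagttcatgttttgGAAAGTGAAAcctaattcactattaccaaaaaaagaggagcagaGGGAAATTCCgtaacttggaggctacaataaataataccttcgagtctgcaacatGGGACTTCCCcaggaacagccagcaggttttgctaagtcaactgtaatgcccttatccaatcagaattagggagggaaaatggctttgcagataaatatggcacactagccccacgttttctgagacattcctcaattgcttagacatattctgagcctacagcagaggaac
CXCL11: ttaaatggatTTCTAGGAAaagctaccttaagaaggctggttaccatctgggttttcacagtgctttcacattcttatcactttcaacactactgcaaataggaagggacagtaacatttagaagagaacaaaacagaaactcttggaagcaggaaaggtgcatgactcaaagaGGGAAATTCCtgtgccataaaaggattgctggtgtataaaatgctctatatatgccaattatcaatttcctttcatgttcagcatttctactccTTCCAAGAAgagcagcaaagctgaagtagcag

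The windows differed in their matches. CXCL10 held an ISRE match, 221 to 212 bases before the start, and NF-kappaB consensus matches at 177 to 168 and at 122 to 113 bases before the start, of which the second matched on both strands. CXCL11 held an NF-kappaB consensus match at 76 to 67 bases before the start, a GAS match at 240 to 232 bases before it and another GAS match within the first 50 bases of the gene. CXCL9 held an ISRE match at 171 to 162 bases before the start. No window held the narrow NF-kappaB form. Of 35116 promoters in the table, 3.57% held the ISRE letters, 7.66% the GAS letters, 1.91% the narrow NF-kappaB form and 11.3% the NF-kappaB consensus. No match overlapped a match of another motif. A match is a run of letters, and whether any factor binds there was not measured.

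**Figure D2:**
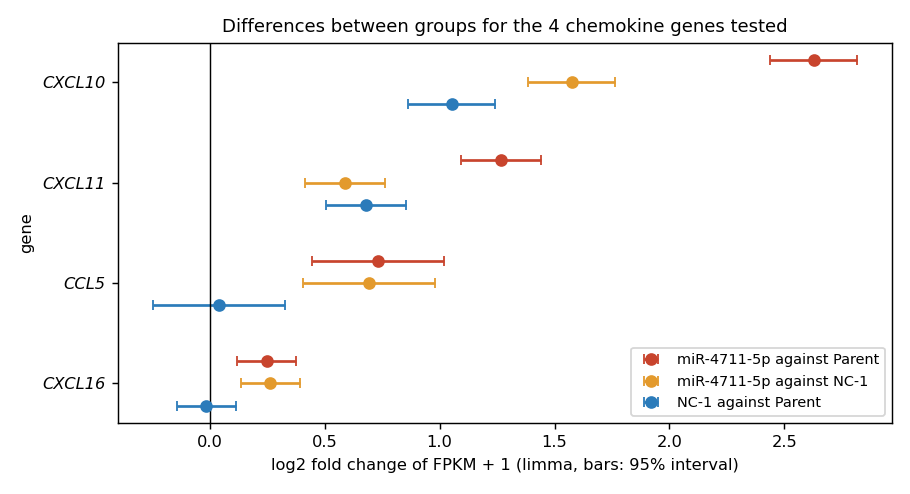
Limma log2 fold change of FPKM + 1 (horizontal axis) of the 4 chemokine genes tested (vertical axis) in the 3 comparisons, with bars for the 95% interval. The interval of NC-1 against Parent includes 0 for CCL5 and CXCL16 and lies above 0 for CXCL10 and CXCL11.

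The membrane-anchored chemokines differed in level. CXCL16 (GRCh37, chromosome 17, 4636828 to 4643223, minus strand), the ligand of CXCR6 and a scavenger receptor for oxidised lipoprotein, had 19.8 and 18.5 FPKM in Parent, 18.7 and 19.2 FPKM in NC-1 and 23.3 and 22.5 FPKM in miR-4711-5p. Parent and NC-1 overlapped, and both miR-4711-5p libraries lay above them. The log2 fold change was 0.25 against Parent (95% interval 0.12 to 0.38, limma adjusted p = 0.00986) and 0.26 against NC-1 (95% interval 0.13 to 0.39, limma adjusted p = 0.00834). Between NC-1 and Parent it was -0.01, with an interval of -0.14 to 0.11 (limma adjusted p = 0.863). Without miR-4711-5p replicate 1, CXCL16 was no longer called against Parent (limma adjusted p = 0.0736) or against NC-1 (limma adjusted p = 0.0649), while its log2 fold change was 0.22 and 0.24, little below that with both libraries, and the fit had fewer libraries. By size of the increase against Parent it was in place 2186 of 12040. Genes on the opposite strand overlap both ends of CXCL16: MED11, with 11.9 to 15.7 FPKM, and ZMYND15, with at most 0.347 FPKM. Whether the counting used the strand is not given in the sources used here.

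CX3CL1 (GRCh37, chromosome 16, 57406389 to 57418956, plus strand), also called fractalkine, had 0.141 and 0.0230 FPKM in Parent, 0.128 and 0.0937 FPKM in NC-1 and 0.251 and 0.266 FPKM in miR-4711-5p. The control groups overlapped and the miR-4711-5p libraries were the highest, but the values correspond to few reads: in steps of the smallest value corrected for depth they were 7 and 1 in Parent, 4.81 and 4 in NC-1 and 13.5 and 16 in miR-4711-5p, not whole in 2 libraries. With no limit on low values, CX3CL1 was not called by limma against Parent (adjusted p = 0.0503) or NC-1 (adjusted p = 0.0925). Relative depth was also higher in the miR-4711-5p libraries. The mean was 0.0817 ± 0.0831 FPKM in Parent, 0.111 ± 0.0246 in NC-1 and 0.259 ± 0.0106 with miR-4711-5p (SD, n = 2 libraries each).

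Of the CC chemokines, CCL5 was expressed and CCL2 was not. CCL5 (GRCh37, chromosome 17, 34198495 to 34207797, minus strand), also called RANTES, had 16.2 and 12.7 FPKM in Parent, 14.9 and 14.8 FPKM in NC-1 and 27.1 and 22.3 FPKM in miR-4711-5p. The Parent libraries lay on either side of the NC-1 libraries, and both miR-4711-5p libraries lay above all of them. The ratio of means was 1.70 against Parent and 1.66 against NC-1. The log2 fold change was 0.73 against Parent (standard error 0.12, 95% interval 0.45 to 1.02, limma adjusted p = 0.00291) and 0.69 against NC-1 (standard error 0.12, 95% interval 0.41 to 0.98, limma adjusted p = 0.00409). Between NC-1 and Parent it was 0.04, with an interval of -0.25 to 0.33 (limma adjusted p = 0.833). These intervals were wider than those of the other 3 genes tested.

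CCL2 (GRCh37, chromosome 17, 32582293 to 32584227, plus strand), the monocyte attractant also called MCP-1, was listed at 0 in both Parent libraries and in NC-1 replicate 1, and had 0.129 FPKM in NC-1 replicate 2 and 0.103 and 0.274 FPKM in miR-4711-5p. In steps of the smallest value these were 1 step in NC-1 replicate 2 and 1 and 3 steps in miR-4711-5p. No difference was detectable at this depth, and no fold change is given.

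The order of the 7 genes by mean FPKM, a value corrected for length, differed between the groups. In Parent cells CXCL16 was highest at 19.2 FPKM, followed by CXCL11 at 16.1, CCL5 at 14.5 and CXCL10 at 10.1, and the libraries of CXCL11 and CCL5 overlapped. In NC-1 the order was CXCL11 at 26.4, CXCL10 at 22.1, CXCL16 at 18.9 and CCL5 at 14.8 FPKM, with no overlap between these neighbours. With miR-4711-5p it was CXCL10 at 68.1, CXCL11 at 40.2, CCL5 at 24.7 and CXCL16 at 22.9 FPKM, where the libraries of CCL5 and CXCL16 overlapped. CXCL10 therefore moved from the fourth place in Parent to the first with miR-4711-5p.

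Within a library, the ratio of CXCL10 to CXCL11 was 0.620 and 0.641 in Parent, 0.831 and 0.844 in NC-1 and 1.71 and 1.68 in miR-4711-5p. The 3 groups did not overlap, and the ratio passed 1 in both miR-4711-5p libraries and in none of the others. The ratio was not tested. The summed FPKM of the 7 genes was 62.3 and 57.7 in Parent, 82.8 and 82.2 in NC-1 and 169 and 145 in miR-4711-5p. CXCL10 made up 16.0% and 17.9% of that sum in Parent, 26.9% and 26.7% in NC-1 and 43.9% and 42.9% with miR-4711-5p. The share of CXCL16 went the other way, from 31.8% and 32.1% in Parent to 13.8% and 15.5% with miR-4711-5p, while its own FPKM was higher.

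**Figure D3:**
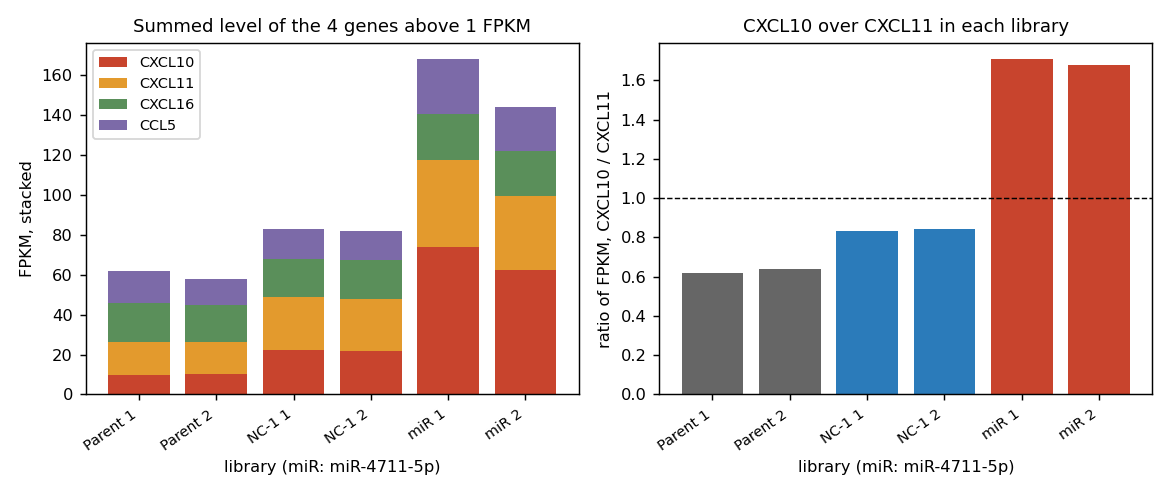
Left, FPKM of CXCL10, CXCL11, CXCL16 and CCL5 stacked for each of the 6 libraries (horizontal axis). Right, the ratio of CXCL10 to CXCL11 FPKM in each library, with a dashed line at 1. The ratio is below 1 in the 4 control libraries and 1.71 and 1.68 in the miR-4711-5p libraries.

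The receptors of these chemokines were nearly absent from the cells. CXCR3 was listed at 0 in the 4 control libraries and had 0.0397 and 0.0702 FPKM in miR-4711-5p. CXCR6, the receptor of CXCL16, reached at most 0.114 FPKM and CX3CR1 at most 0.0207 FPKM. CCR2, CCR3 and ACKR1 were listed at 0 in every library. Of the 12 receptors listed, only CCRL2, an atypical receptor that does not signal, passed the limit of 1 FPKM, with 2.71 to 4.04 FPKM, and it was not called against Parent (limma adjusted p = 0.112), against NC-1 (limma adjusted p = 0.189) or between NC-1 and Parent (limma adjusted p = 0.787). ACKR3, which binds CXCL11 and CXCL12 and removes them, had 0.824 and 1.05 FPKM in Parent, 1.10 and 0.813 in NC-1 and 0.177 and 0.525 with miR-4711-5p.

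Of 3 listed proteases that release or trim the chemokines, all named here after their values were seen, ADAM10 and ADAM17, which cut CXCL16 and CX3CL1 from the membrane, were expressed, and DPP4, which shortens the CXCR3 ligands at their start, was at most 0.209 FPKM. ADAM10 had 64.7 and 70.4 FPKM in Parent, 79.4 and 77.4 in NC-1 and 65.7 and 63.5 with miR-4711-5p. It was called higher in NC-1 than in Parent (log2 fold change 0.21, limma adjusted p = 0.0267) and lower with miR-4711-5p than with NC-1 (log2 fold change -0.28, limma adjusted p = 0.00617), and was not called between miR-4711-5p and Parent (limma adjusted p = 0.373). ADAM17 was called higher than in Parent both with miR-4711-5p (log2 fold change 0.32, limma adjusted p = 0.00841) and with NC-1 (log2 fold change 0.30, limma adjusted p = 0.0189), and was not called between them (limma adjusted p = 0.846).

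The signalling genes around the chemokines differed by list. The median log2 fold change of all 12040 genes between miR-4711-5p and Parent was -0.01. Of 10 interferon ligands none reached the limit of 1 FPKM. IFNB1, the gene of interferon beta, was listed at 0 in the 4 control libraries and had 0.613 and 0.234 FPKM with miR-4711-5p. These values were low, and relative depth was also higher in the miR-4711-5p libraries. IFNL1 had 0.0919 and 0.421 FPKM in Parent, 0 and 0.214 in NC-1 and 0.342 and 0.609 with miR-4711-5p, so Parent and miR-4711-5p overlapped. IFNL2 and IFNL3 were above 0 only in miR-4711-5p replicate 1. These ligands are named here after their values were seen. IFNG and IFNA1, also named after their values were seen, were listed at 0 in all 6 libraries. Of 9 interferon receptor chains and JAK kinases, 8 were tested, and 2 were called higher against Parent after miR-4711-5p, a share near the 18.7% of all genes. Of these, JAK1 was also called higher than in NC-1, with 43.7 and 43.6 FPKM in Parent, 51.1 and 50.9 in NC-1 and 56.4 and 57.1 with miR-4711-5p. Of the 8 tested, 3 were called lower than in NC-1, where 21.2% of all genes were.

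Among transcription factors of the interferon response, IRF9 and STAT2, which take part in binding the ISRE, were called higher with miR-4711-5p against both Parent and NC-1. IRF9 had 26.7 and 26.0 FPKM in Parent, 36.5 and 38.5 in NC-1 and 79.6 and 75.4 with miR-4711-5p, a log2 fold change over Parent of 1.52 (limma adjusted p = 3.95e-06). For STAT2 it was 1.16 (limma adjusted p = 1.61e-05). IRF1, which is known to act on the promoters of these chemokines and is named here after its values were seen, had 20.7 to 23.0 FPKM in the 6 libraries and a log2 fold change of 0.08 against Parent, with an interval of -0.05 to 0.20 (limma adjusted p = 0.270). IRF9 was also called higher in NC-1 than in Parent, by 0.49 on the log2 scale (limma adjusted p = 0.00161). So was STAT2, by 0.22 (limma adjusted p = 0.0372).

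Of 6 sensors of double-stranded RNA and their adaptor, 5 were called higher with miR-4711-5p against both Parent and NC-1. Over all genes, the share called higher was 18.7% in the first comparison and 18.4% in the second. The share of all genes called in both was not computed. The median log2 fold change over the 6 was 1.24 against Parent. DDX58, the gene of RIG-I, had the largest difference, 1.88 against Parent (limma adjusted p = 4.87e-06), followed by IFIH1 at 1.54 (limma adjusted p = 4.30e-06), DHX58 at 1.27 (limma adjusted p = 1.88e-05) and EIF2AK2 at 1.21 (limma adjusted p = 1.55e-05). MAVS, the adaptor on mitochondria, named after its values were seen, was not called against Parent (limma adjusted p = 0.271) and was called lower against NC-1 (limma adjusted p = 0.00649). Between NC-1 and Parent, 2 of the 6 were called higher, against 12.1% of all genes. Of 9 NF-kappaB subunits and inhibitors, 5 were called higher against Parent after miR-4711-5p, where 18.7% of all genes were. None was called lower, where 24.7% of all genes were. Their median log2 fold change was 0.29. TNFAIP3, which feeds back on NF-kappaB, had a log2 fold change of 1.2 (limma adjusted p = 5.88e-06), NFKBIA, the main inhibitor, 0.87 (limma adjusted p = 1.54e-05), NFKB2 0.60 (limma adjusted p = 0.000194) and RELB 0.59 (limma adjusted p = 0.000791). All 4 were called higher than in NC-1 as well. Between NC-1 and Parent, 4 of the 9 were called higher and 1 lower, against 12.1% and 15.1% of all genes. TNFAIP3 (log2 fold change 0.48), NFKBIA (0.39) and NFKB2 (0.33) were among those called higher in NC-1, and RELB was not called.

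Of 13 other CXC chemokines, 7 were tested, and 5 were called higher with miR-4711-5p against both controls. Over all genes, the share called higher was 18.7% in the comparison with Parent and 18.4% in that with NC-1. The median log2 fold change over the 7 was 2.17 against Parent. The largest differences were those of the neutrophil attractants CXCL1 (3.34, limma adjusted p = 2.81e-06), CXCL8 (3.06, limma adjusted p = 2.81e-05), CXCL3 (2.42, limma adjusted p = 3.95e-06) and CXCL2 (2.17, limma adjusted p = 3.53e-05). Against Parent, CXCL10 at 2.63 thus lay between CXCL8 and CXCL3. Against NC-1 the log2 fold changes were 2.74 for CXCL1, 2.28 for CXCL3, 1.95 for CXCL8, 1.58 for CXCL10 and 1.57 for CXCL2. There CXCL10 lay between CXCL8 and CXCL2. Of the 7 other CXC chemokines tested, 3 were called higher in NC-1 than in Parent, against 12.1% of all genes. Of 28 other CC and C chemokines, 3 were tested. CCL20, the ligand of CCR6, was called higher against Parent by 2.0 (limma adjusted p = 8.88e-05) and was called higher against NC-1 as well. It was also called higher in NC-1 than in Parent, by 0.75 (limma adjusted p = 0.0132). CCL22, the ligand of CCR4, averaged 0.848 FPKM in Parent, 0.914 in NC-1 and 2.59 with miR-4711-5p. It passed the limit of 1 FPKM only through the group where it was high, so its test is not given. The remaining 25 were below the limit, which left most of the family out of the test.

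**Figure D4:**
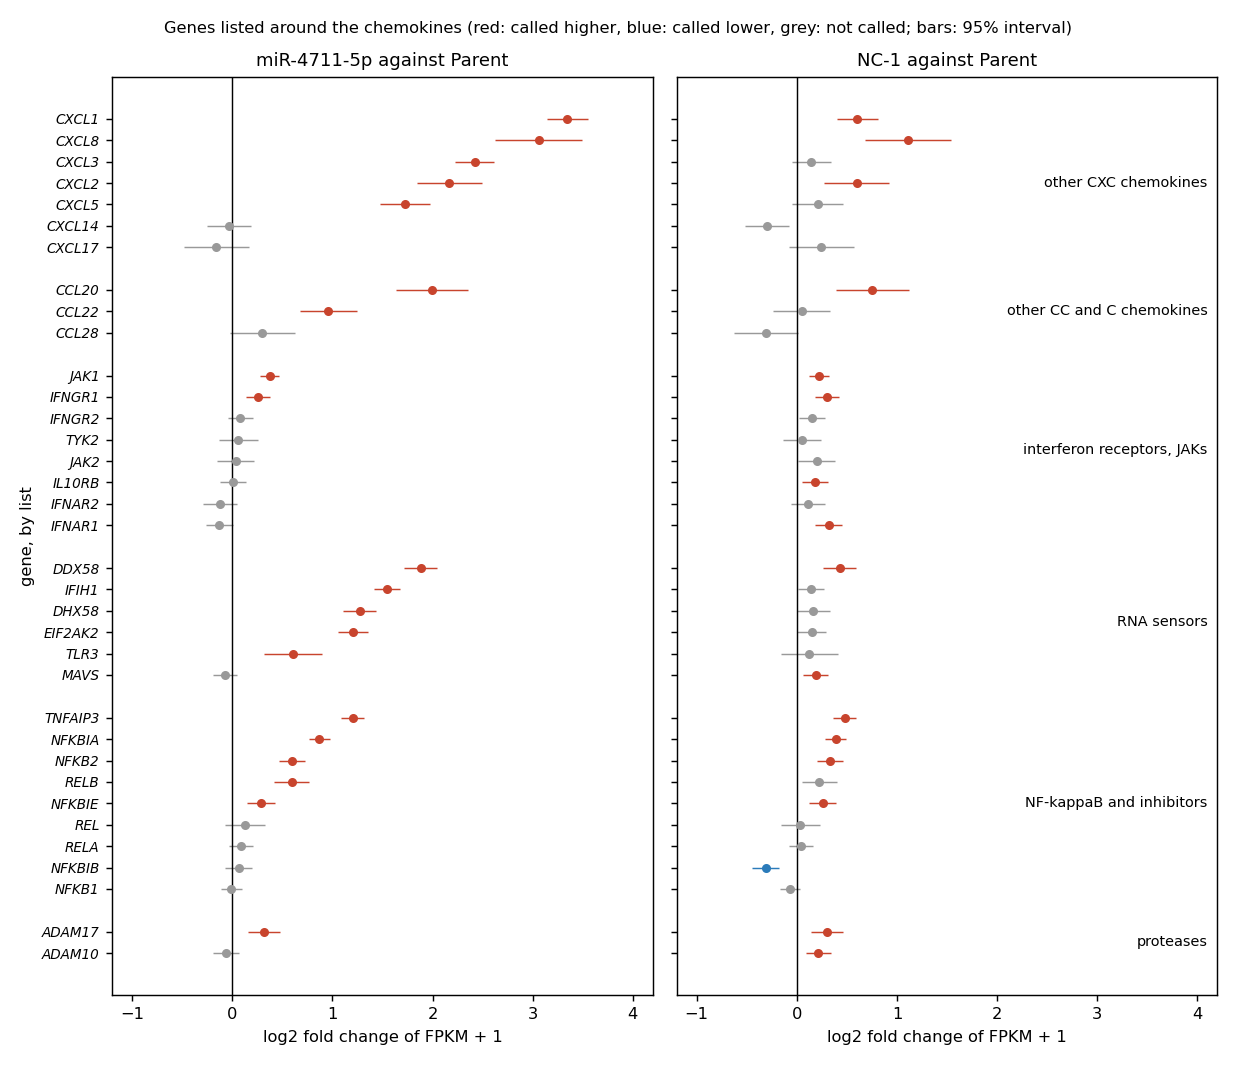
Limma log2 fold change of FPKM + 1 (horizontal axes) with 95% interval of the tested genes of 6 lists (vertical axis), for miR-4711-5p against Parent (left) and NC-1 against Parent (right). Red marks genes called higher, blue called lower and grey not called. The left panel reaches 3.34 for CXCL1, and the largest value on the right is 1.11 for CXCL8. CCL22 entered only through its level with miR-4711-5p. Both panels share the Parent libraries.

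The genes with the most similar pattern over the 6 libraries were found by the root mean square difference of log2(FPKM + 1), centred on the Parent mean. For CXCL10 they were CGA (difference 0.07), the common alpha subunit of pituitary and placental hormones, IFI44L (0.24), and CMPK2 (0.27). CGA had a mean of 6.60 FPKM in Parent, 15.1 in NC-1 and 44.1 with miR-4711-5p. For CXCL11 they were GBP1 (0.05), a guanylate-binding protein induced by interferons, AKAP12 (0.07) and ITGB8 (0.08). GBP1 had 15.8 FPKM in Parent, 26.7 in NC-1 and 38.5 with miR-4711-5p, close to CXCL11 in level as well. For CCL5 they were KIFC3 (0.08), SLC25A28 (0.08) and GAL (0.09), and for CXCL16 they were DDIT3 (0.02), GALNT14 (0.02) and SPEN (0.02). The 4 chemokines shared none of these nearest genes.

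Seed sites of miR-4711-5p were searched in the annotated 3′ UTRs of the 7 genes (GENCODE on GRCh37), as CTGATGC (7mer-m8), TGATGCA (7mer-A1) or both together (8mer). CXCL10, CXCL11, CXCL16, CCL2 and CCL5 had none in any coding transcript. CXCL9 had a 7mer-A1 site at 76923542 to 76923548 of chromosome 4, position 1203 of a 3′ UTR of 2323 bases. CX3CL1 had a 7mer-m8 site at 57418031 to 57418037 of chromosome 16, in 3 of 4 coding transcripts. Of 10593 tested genes matched by symbol, 18.5% had a 7mer or 8mer in their longest 3′ UTR. None of the 4 chemokines that were called had such a site. CXCL9 and CX3CL1, which had one, were below 1 FPKM in every library, also in untreated Parent. They averaged 0.0497 and 0.0817 FPKM in Parent, 0.102 and 0.111 in NC-1 and 0.505 and 0.259 with miR-4711-5p. Whether any site acted was not tested.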

How the data were processed

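RNA from BxPC-3 cells was sequenced as strand-specific mRNA libraries in single-end mode, 2 libraries in each of 3 groups. The authors aligned reads to the hg19 build (TopHat, Bowtie2, SAMtools) and obtained FPKM from Cuffnorm. Per the submitters' processing notes, the versions were TopHat2 2.1.1, Bowtie2 2.3.5.1, SAMtools 1.2 and Cufflinks 2.2.1, and the methods section names other versions for the first 3 of these. The gene annotation and the normalization option are not given in the sources used here. The deposited values are FPKM by symbol, without counts.

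FPKM + 1 were transformed to log2, and genes averaging 1 FPKM or more across the libraries were fitted with limma 3.58.1 in R 4.3.3 (lmFit, contrasts.fit, eBayes with trend), all 3 groups in 1 fit with 3 residual and 4.15 prior degrees of freedom. Tests were two-sided with Benjamini-Hochberg adjustment over 12040 genes. Fold changes on this scale understate those of low genes. Ratios are of mean FPKM with no pseudocount. Relative depth is the most common ratio of values under 0.1 FPKM to those of Parent replicate 1 (854 to 976 genes per library). On simulated data with 200 changed genes of 12040 in each of 10 runs, the comparison of miR-4711-5p and Parent found 96.0% of planted log2 changes of 1.2, 88.4% of 0.7 and 44.2% of 0.25, and 5.45% of its calls were false. The simulated noise was normal, with a spread smoothed over mean level. In the data 5230 genes were called against Parent with miR-4711-5p, so these rates may not hold there. Other steps used Python 3.11.15, numpy 2.4.6, pandas 2.3.3 and matplotlib 3.10.9.

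The members and gene lists were chosen with earlier results of these data known. Named genes were the 7 members, up to 4 genes of each list with the largest log2 fold change against Parent among those called against both controls, the receptors, and the 3 nearest genes of each tested member. Some listed genes are not reported here. Genes outside this rule are said to be named after their values were seen. Alternatives changed the pseudocount, the limit on low values, the scaling, the groups in the fit, the trend, the replicate block and the fold required, or left out 1 library.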

Additional observations from a re-analysis of the deposited data

How the results depend on the processing

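The number of the chemokines called was 3 to 5 over 15 alternatives against Parent and against NC-1, and 2 in all 15 for NC-1 against Parent. The fifth was CXCL9, which entered when the limit on low values was removed, or lowered to 0.1 FPKM, which it passed only through the miR-4711-5p libraries. With a ratio of at least 1.5 also required, or without miR-4711-5p replicate 1, 3 were called and CXCL16 was not. With the replicate number as a block, 4, 4 and 2 were called, as without it. No label says whether libraries of the same number shared a culture or batch. The deviations of same-numbered libraries had correlations of 0.06, 0.0030 and -0.0089 between pairs of groups, so the block is given only here. Leaving out 1 library at a time gave log2 fold changes of 2.50 to 2.75 for CXCL10, 1.16 to 1.38 for CXCL11, 0.57 to 0.90 for CCL5 and 0.20 to 0.29 for CXCL16 against Parent. Of the differences that were not called, NC-1 against Parent changed sign for CXCL16 after median-of-ratios rescaling (0.0016), without Parent replicate 1 (0.031) and without NC-1 replicate 1 (0.0040), within a range of -0.061 to 0.031 when 1 library was left out, and for CCL5 without Parent replicate 2 (-0.12, in a range of -0.12 to 0.20 when 1 library was left out). Where 1 library stood for a group, its spread was taken from the other groups. Over all genes, the 2255 called higher against Parent became 721 with a ratio of at least 1.5 required, 1283 without miR-4711-5p replicate 1 and 1398 without replicate 2. Against NC-1, 2214 became 551, 1233 and 1285 under the same changes. For NC-1 against Parent, 1456 became 307 with that ratio and 671 to 1056 with 1 library left out. Rescaling factors were 0.997 to 1.01. With 2 libraries a group, every p-value leans on limma's pooled estimate of spread, and FPKM leave the depth behind the lowest genes known only in relative terms.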
